A study of Mus musculus with 6 samples.

Results

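The genes described here encode the enzymes and regulators of cholesterol and fatty acid synthesis, chosen by name as a list of 33 genes, of which 32 had a probe set annotated to that gene alone among 18193 genes tested. The gene without one was Acat2, an acetoacetyl-CoA thiolase. The arrays compared mesenchyme with epithelium, the future urothelium, of the bladder of wild-type FVB/N mouse embryos of unknown sex at embryonic day 13 (Theiler stage 21). There were 3 mesenchyme arrays (numbered 1, 2 and 4 in their labels) and 3 epithelium arrays (5, 7 and 8). The compartments were parted by needle after the dissected bladder had been soaked in EDTA, and the labels describe the samples as not pooled. Whether each array had an embryo of its own is not stated in them. The p-values therefore reflect only how far these samples spread, and that spread may be technical.

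Cholesterol is built from acetyl-CoA through mevalonate, isoprenoid diphosphates and squalene, and a chain of sterol-modifying enzymes in the endoplasmic reticulum finishes it. Fatty acids are built from the same precursor by acetyl-CoA carboxylase and fatty acid synthase, then lengthened by elongases of the Elovl family and given double bonds by the Scd and Fads desaturases. SREBP transcription factors, held back by Insig proteins and escorted by Scap when sterols are low, raise transcription in both branches. In the mature bladder the apical urothelial membrane is known for its rigid uroplakin plaques and a lipid content rich in cholesterol and glycosphingolipids.

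The largest differences between the compartments were in genes that lengthen fatty acids or give them double bonds. Elovl7 was 61.0-fold higher in epithelium, and Scd1, Fads1 and Fads2 were 22.4-fold, 3.77-fold and 3.52-fold higher in mesenchyme. Smaller differences past the test were found for Sc5d, Srebf1 and Me1, higher in epithelium, and for Elovl6, higher in mesenchyme. In all, 4 of the 32 measured genes were higher in epithelium, where 5.75% of all genes were, and 4 were higher in mesenchyme, where 8.99% were. Together that is 25% of the list, against 14.7% over all genes. By role the 8 genes were 1 of 16 sterol synthesis enzymes, 1 of 4 regulators and 6 of 12 fatty acid genes, and these shares were not tested against each other. The median log2 difference, epithelium minus mesenchyme, was 0.21 for the list and -0.11 for all genes. The arrays of the compartments did not overlap for 12 of the 32 genes, a share of 37.5% against 30.2% of all genes. Folds and log2 differences were taken after adding 45 (the 25th percentile over every signal) to each signal, which understates the change of dim genes. A gene passed the test with limma's adjusted p under 0.05 over all genes. The number higher in epithelium fell to 2 without mesenchyme 2, mesenchyme 4 or epithelium 7, and that higher in mesenchyme was 3 to 4 with any one array left out.

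**Figure D1:**
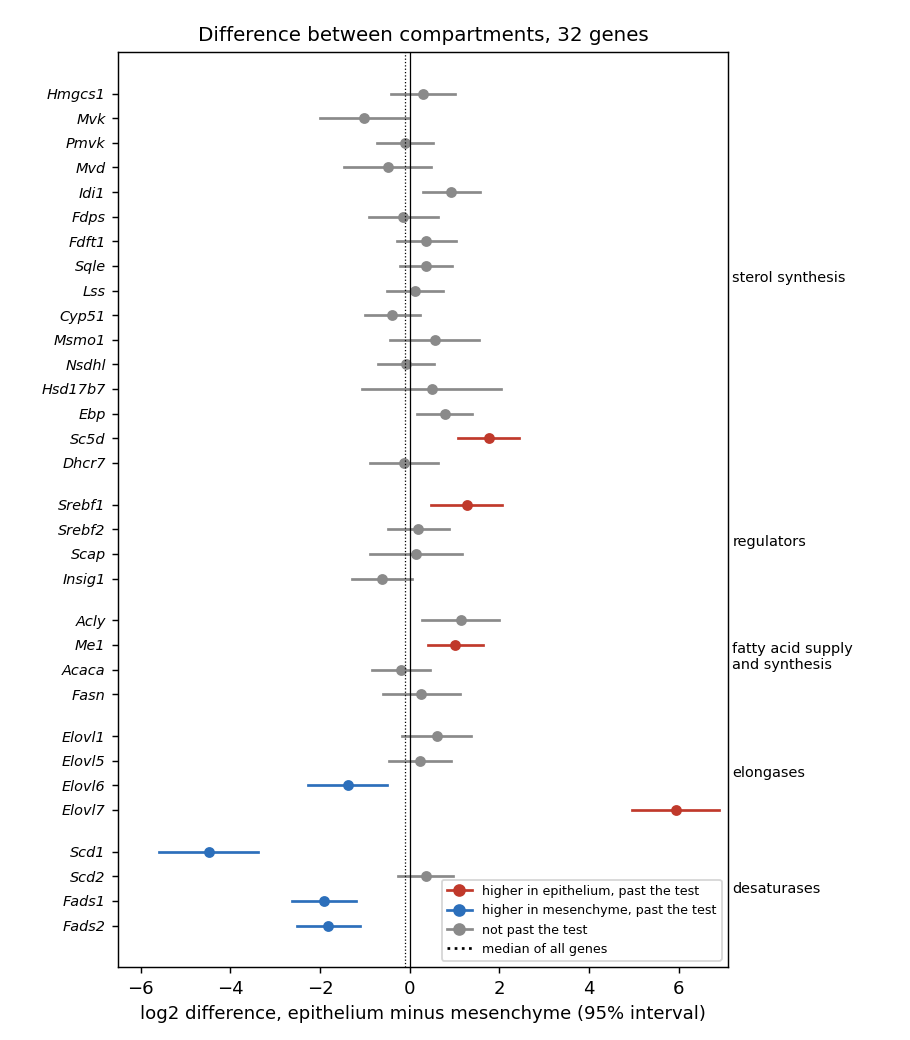
Log2 differences, epithelium minus mesenchyme, of the 32 genes grouped by role, with 95% intervals from the limma fit to 3 arrays of each compartment; the dotted line is the median of all genes at -0.11. The 15 sterol synthesis genes not past the test have intervals between -2.00 and 2.04, Elovl7 lies far to the right at 5.93, and Scd1 far to the left at -4.48.

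The labels of the compartments were checked against marker genes. All 12 epithelial markers were higher in epithelium and all 12 mesenchymal markers higher in mesenchyme. The summed signal of the epithelial markers was 382756 to 421054 on epithelium arrays and 9675 to 13108 on mesenchyme arrays, and that of the mesenchymal markers was 12102 to 16827 and 290209 to 389558. Markers of other cell types were also higher in mesenchyme: all 7 endothelial markers (summed signal 13471 to 17412, against 694 to 868 in epithelium), 5 of 7 macrophage markers (9943 to 14512, against 1416 to 1709) and 5 of 6 smooth muscle markers (68666 to 87533, against 3136 to 3635). So were 4 of 6 red cell markers, whose summed signal overlapped (70364 to 88929 against 57082 to 103832), and 2 of 4 mesothelial markers, Wt1 and Lrrn4, while the mesothelial marker Msln was higher in epithelium. Of 5 nerve and glia markers 1 was higher in each compartment, Ret in epithelium and Stmn2 in mesenchyme. No marker signal was exactly 0 on any array. In such bulk samples fewer cells of a type and less RNA per cell cannot be told apart. Mesenchyme 1 and epithelium 5 stood apart by a 3' to 5' ratio of beta-actin signal of 8.40 and 8.60, whereas the remaining 4 had 2.29 to 4.89. The same ratio of Gapdh was highest on epithelium 5 (26.28) but 11.48 on mesenchyme 1, within the 9.77 to 15.73 of the other 4. Without both arrays the counts were again 4 and 4. With arrays weighted by how closely each followed the model over all genes, which gave mesenchyme 1 a weight of 0.266 and epithelium 7 a weight of 3.02, 11 of the 32 genes were higher in epithelium and 5 in mesenchyme, while the counts over all genes rose to 2074 and 3033.

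**Figure D2:**
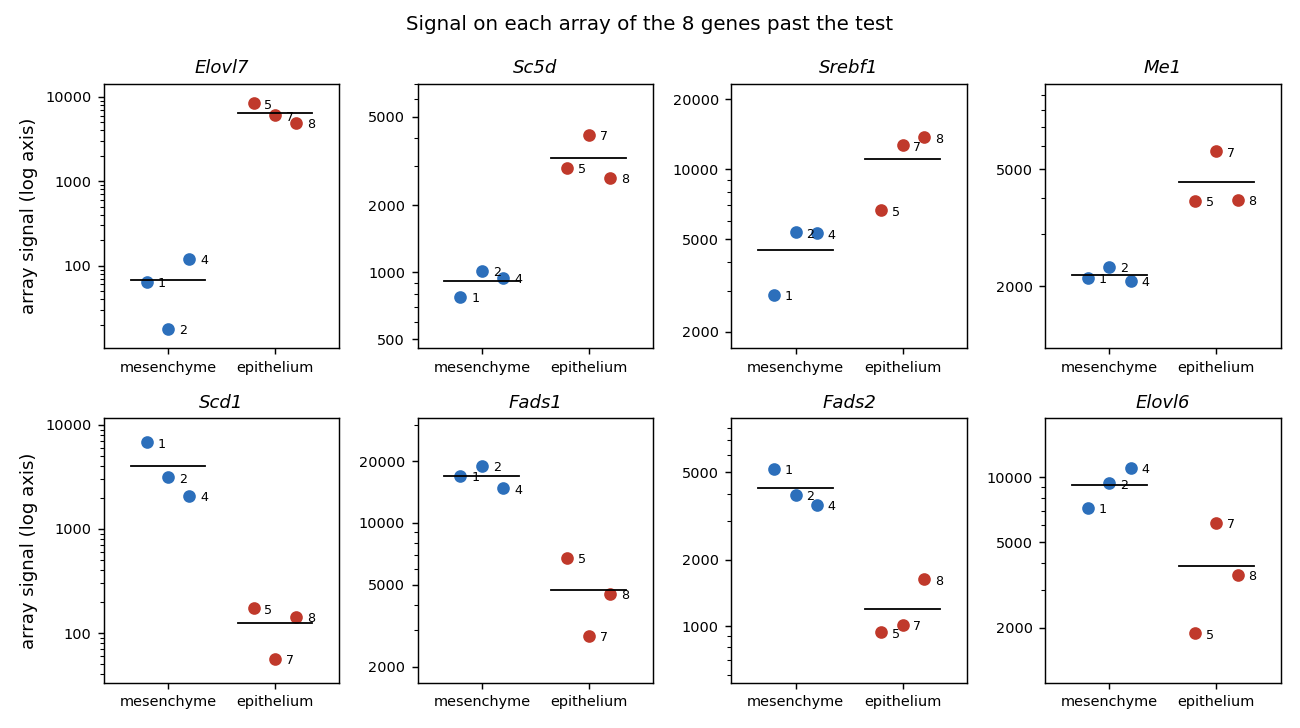
Signal of the 8 genes past the test on each array, on a log axis of its own for each gene; points are arrays numbered as in the labels and lines are means of 3 arrays. In every panel the compartments do not overlap, and for Elovl7 the epithelium arrays lie between 4951 and 8422 against 18.0 to 120.3 in mesenchyme.

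Elovl7 and Sc5d, higher in epithelium, and Fads2, higher in mesenchyme, are shown by the 250 bases before their RefSeq start (GRCm38.p6), as genes past the test, under every alternative or all but one, for which such a window was given. The Elovl7 window lies at chr13:108214154-108214403 on the plus strand, the Sc5d window at chr9:42264301-42264550 on the minus strand, and the Fads2 window at chr19:10101504-10101753 on the minus strand. Capitals mark matches, on either strand, to the E-box CACGTG, the NF-Y box CCAAT and the Sp1 box GGGCGG.
Elovl7: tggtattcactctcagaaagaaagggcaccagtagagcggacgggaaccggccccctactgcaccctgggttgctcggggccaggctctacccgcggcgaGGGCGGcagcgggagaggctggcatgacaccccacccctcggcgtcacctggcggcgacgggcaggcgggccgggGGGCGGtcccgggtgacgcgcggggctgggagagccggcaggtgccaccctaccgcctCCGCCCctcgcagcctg
Sc5d: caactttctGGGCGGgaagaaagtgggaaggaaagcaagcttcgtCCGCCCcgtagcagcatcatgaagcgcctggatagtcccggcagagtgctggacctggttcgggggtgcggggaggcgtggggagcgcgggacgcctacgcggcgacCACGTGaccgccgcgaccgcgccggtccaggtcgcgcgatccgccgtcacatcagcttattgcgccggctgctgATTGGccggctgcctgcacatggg
Fads2: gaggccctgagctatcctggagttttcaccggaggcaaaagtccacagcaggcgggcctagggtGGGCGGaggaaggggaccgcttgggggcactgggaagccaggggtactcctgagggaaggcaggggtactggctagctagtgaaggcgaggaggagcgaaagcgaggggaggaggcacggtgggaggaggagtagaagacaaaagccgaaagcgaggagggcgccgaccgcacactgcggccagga

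The Sc5d window held 1 E-box, 1 NF-Y box and 2 Sp1 boxes, the Elovl7 window 3 Sp1 boxes, and the Fads2 window 1 Sp1 box. Of 35 such windows for 27 genes of the list, 21 (60.0%) held an NF-Y box, against 33.8% of all 32851 windows. An Sp1 box was found in 25 (71.4%, against 32.7%) and an E-box in 6 (17.1%, against 6.02%). The classical SREBP site, searched exactly and with 1 free base, was in 0 of the 35 windows, against 0.0731% and 0.192% of all windows. With shares that low over all windows, finding 0 among 35 cannot tell the list from other genes. Windows of a gene with several starts can share sequence, and a match to these letters is a description of the window only.

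None of the enzymes from acetyl-CoA to the isoprenoid diphosphates passed the test on the probe set used. Hmgcs1, which makes hydroxymethylglutaryl-CoA, had 71736, 37059 and 34562 in mesenchyme and 64519.5, 57996 and 46159.8 in epithelium, in the order of the arrays 1, 2, 4 and 5, 7, 8 that is used throughout. The high value on mesenchyme 1 spanned the epithelium arrays, and the log2 difference of 0.30 had a 95% interval of -0.41 to 1.02; such intervals follow other differences in brackets. Mvk, mevalonate kinase, had 679.0, 1156 and 1196.5 in mesenchyme against 312.6, 382.3 and 816.0 in epithelium, with epithelium 8 above mesenchyme 1 (log2 difference -1.01 ± 0.45 (SE), limma adjusted p = 0.185). Pmvk, the next kinase, differed by -0.11 (-0.74 to 0.52), and Mvd, mevalonate diphosphate decarboxylase, by -0.49 (-1.46 to 0.48).

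Idi1, the isomerase that interconverts the isoprenoid units, came nearest to the threshold among the sterol genes that missed it. Its signals were 8592, 9909 and 8388 in mesenchyme and 19679.7, 21522 and 11703 in epithelium, so that every epithelium array was above every mesenchyme array. The log2 difference was 0.93 ± 0.29 (SE), with a limma adjusted p of 0.0548; the other Idi1 probe set differed by 1.06 without overlap and passed by itself (limma adjusted p = 0.0346 over all named probe sets). Idi1 passed without epithelium 8, with its probe sets averaged, among genes above the median signal and with array weights. Fdps, farnesyl diphosphate synthase, differed by -0.14 (-0.92 to 0.64).

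From squalene to cholesterol 1 enzyme, Sc5d, passed. Fdft1, squalene synthase, differed by 0.37 (-0.28 to 1.03), Sqle, squalene epoxidase, by 0.36 (-0.21 to 0.93), and Lss, lanosterol synthase, by 0.12 (-0.50 to 0.74). Another Fdft1 probe set differed by -0.37. Of the other Lss probe sets, the dimmer differed by 1.17 without overlap and the brighter by -0.15. Neither passed. Cyp51, the lanosterol demethylase, differed by -0.39 (-1.01 to 0.24), Nsdhl, a sterol dehydrogenase, by -0.08 (-0.70 to 0.53), and Dhcr7, the reductase that yields cholesterol, by -0.13 (-0.89 to 0.64). None of these 6 genes passed under any alternative except Sqle, which passed with array weights. Ebp, the sterol isomerase, had 2133, 2369.9 and 1734 in mesenchyme and 4090.5, 3488 and 3178 in epithelium, without overlap, but its log2 difference of 0.78 ± 0.28 (SE) missed the threshold (limma adjusted p = 0.0946).

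Sc5d, the desaturase that acts late in sterol synthesis, was higher in epithelium. Its signals were 776.4, 1019 and 947.9 in mesenchyme and 2957, 4145 and 2653 in epithelium, means of 914.5 ± 124.8 (SD, n = 3) and 3252 ± 788 (SD, n = 3). All epithelium arrays lay above all mesenchyme arrays, and the log2 difference was 1.76 ± 0.31 (SE; limma adjusted p = 0.00259). Another Sc5d probe set gave 3005, 1068 and 1262 in mesenchyme and 2440.6, 928.9 and 1884 in epithelium, a difference of 0.02 with overlap. Averaging the 3 probe sets removed the call (0.81, limma adjusted p = 0.106). On that probe set the highest value of each compartment came from mesenchyme 1 and epithelium 5, the arrays with the high actin ratio; the part of RNA quality in this was not tested.

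Msmo1 and Hsd17b7, enzymes of the steps by which methyl groups leave the sterol ring, varied widely between arrays of a compartment. Msmo1 had 9659.9, 3279 and 2977 in mesenchyme and 8821, 7839.7 and 4433 in epithelium. The Hsd17b7 probe set gave 44717, 7047 and 5755 against 29739, 19579 and 8667. For both genes mesenchyme 1 and epithelium 5 were the highest arrays of their compartments. Another Hsd17b7 probe set was lowest on precisely these arrays, with 230.4 on mesenchyme 1 (2172 and 885.3 on the others) and 196.2 on epithelium 5 (2230.5 and 2571). Their log2 differences were 0.56 (-0.43 to 1.55) and 0.49 (-1.06 to 2.04), and both passed with array weights, at 1.09 and 1.30. Hmgcs1, Idi1, Sqle, Ebp and Acly also moved past the test towards epithelium under these weights, and Mvk towards mesenchyme.

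Of the 15 sterol enzymes not past the test, 8 had log2 differences above 0 and 7 below. On the probe sets used, their 95% intervals reached from -2.00 for Mvk to 2.04 for Hsd17b7, and those of 6 lay within 2-fold in either direction. For the others a 2-fold difference between compartments was within the interval.

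Among the regulators, Srebf1, which encodes the SREBP that chiefly drives fatty acid synthesis, passed. Its signals were 2887.5, 5367 and 5293 in mesenchyme and 6668, 12713 and 13759.8 in epithelium. The lowest arrays of each compartment were mesenchyme 1 and epithelium 5, yet the compartments did not overlap, and the log2 difference was 1.27 ± 0.36 (SE; limma adjusted p = 0.0363). It did not pass when mesenchyme 1 (0.98), mesenchyme 2 (1.42), mesenchyme 4 (1.41), epithelium 7 (1.13) or epithelium 8 (1.08) was left out, but did without mesenchyme 1 and epithelium 5 together (1.30, limma adjusted p = 0.00349). Srebf2, which encodes the SREBP that chiefly drives cholesterol synthesis, had 1346, 1657 and 1503 against 1524, 1524 and 2183.5, a log2 difference of 0.19 (-0.48 to 0.87). A dimmer Srebf2 probe set, not used in the comparison that follows, differed by -0.45 (-1.25 to 0.34) with overlap. The log2 difference of Srebf1 exceeded that of Srebf2 by 1.07 in an exact two-sided permutation test with p = 0.100 (adjusted p = 0.120 over 6 gene pairs), the smallest p that 3 against 3 arrays allow.

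Scap, the escort of the SREBPs, differed by 0.14 (-0.90 to 1.17). Insig1, which retains them and is itself a sterol-responsive target, had 11467, 7175 and 7136 in mesenchyme and 6769.6, 5828 and 4039 in epithelium. The arrays did not overlap, and the log2 difference of -0.62 ± 0.30 (SE) did not pass (limma adjusted p = 0.236).

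Of the genes that supply and assemble fatty acids, Me1, the malic enzyme that yields NADPH, passed. Its signals of 2130.4, 2329 and 2088 in mesenchyme and 3907, 5775 and 3933 in epithelium did not overlap, and the log2 difference was 1.02 ± 0.28 (SE; limma adjusted p = 0.0309). The call was lost without mesenchyme 2 (1.06), mesenchyme 4 (0.99) or epithelium 7 (0.83). It was also lost without the intensity trend (limma adjusted p = 0.0508) and with its probe sets averaged (1.12, limma adjusted p = 0.0582). The other Me1 probe set had 1510, 1664.5 and 833.5 in mesenchyme and 3149, 6007.5 and 1469 in epithelium. That is a difference of 1.22 with overlap, which did not pass (limma adjusted p = 0.185 over all named probe sets). Acly, which releases cytosolic acetyl-CoA from citrate, had 13232, 34217 and 36178 in mesenchyme and 68899, 56049 and 45048 in epithelium. Every epithelium array was higher, but mesenchyme 1 stood far below mesenchyme 2 and 4, and the log2 difference of 1.13 ± 0.39 (SE) missed the threshold (limma adjusted p = 0.0817).

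Another Acly probe set had the reverse order within mesenchyme, with 17691, 10742 and 9821, and even signals of 21449.5, 21193 and 21216 in epithelium, a difference of 0.79. Averaging its probe sets gave 0.34, and leaving out mesenchyme 1 and epithelium 5 gave 0.51. The core enzymes did not differ past the test. Acaca, acetyl-CoA carboxylase, differed by -0.19 (-0.84 to 0.46). Fasn, fatty acid synthase, had 3159, 5824.5 and 6543 in mesenchyme and 3823.5, 5624 and 9577 in epithelium, with a difference of 0.26 (-0.60 to 1.11).

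**Figure D3:**
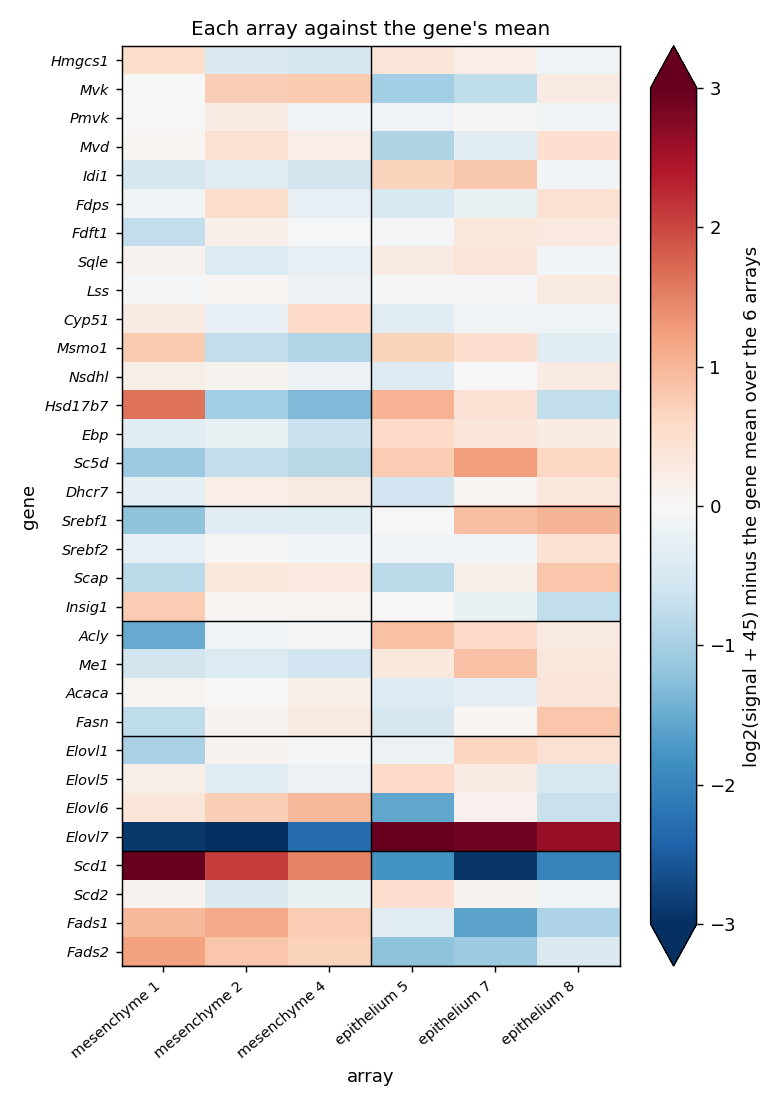
Log2(signal + 45) of each of the 32 genes on each of the 6 arrays, minus the gene's mean over all arrays; red is above and blue below that mean, colours saturate at 3 in either direction, and lines part the roles and compartments. Elovl7 and the desaturase genes Scd1, Fads1 and Fads2 change colour between compartments, whereas Hsd17b7 is highest and Acly lowest on mesenchyme 1.

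The elongases divided by gene. Elovl7, an elongase of saturated very long chains, had 64.4, 18.0 and 120.3 in mesenchyme and 8422, 6072 and 4951 in epithelium, means of 67.6 ± 51.3 (SD, n = 3) and 6481 ± 1772 (SD, n = 3). The mesenchyme 2 signal was below 45, the 25th percentile of all signals, and the compartments did not come near each other. The log2 difference was 5.93 ± 0.44 (SE; limma adjusted p = 9.52e-06). Each of its 6 probe sets passed in the same direction, with differences of 2.61 to 5.93, and the call held under all 18 alternatives (4.03 to 6.89). Elovl6, which lengthens palmitate to stearate, went the other way, with 7206, 9374.5 and 11059 in mesenchyme and 1887, 6144 and 3537 in epithelium. The arrays did not overlap, and the log2 difference was -1.38 ± 0.40 (SE; limma adjusted p = 0.0394).

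Elovl6 no longer passed when mesenchyme 2 (-1.36), mesenchyme 4 (-1.24), epithelium 5 (-0.95) or epithelium 8 (-1.40) was left out. Centring each array on its median gave -1.20 without a call, as did averaging its 3 probe sets (-0.56, limma adjusted p = 0.457). Elovl1, an elongase of saturated and monounsaturated very long chains, had 3252, 6954 and 6181 in mesenchyme and 5637, 10008 and 8755 in epithelium, with overlap and a difference of 0.60 (-0.17 to 1.37). Elovl5, the elongase of polyunsaturated chains, differed by 0.22 (-0.47 to 0.92). The log2 difference of Elovl7 exceeded those of Elovl1, Elovl5 and Elovl6 by 5.33, 5.71 and 7.31, each with an exact two-sided permutation p of 0.100. That is the smallest p that 3 against 3 arrays allow, so no pair could pass (adjusted permutation p = 0.120 each).

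Of the desaturases, 3 of 4 were higher in mesenchyme. Scd1, which makes monounsaturated fatty acids, had 6802, 3136 and 2090.6 in mesenchyme and 173.2, 56.4 and 143.3 in epithelium. All mesenchyme arrays lay far above all epithelium arrays, and the log2 difference was -4.48 ± 0.50 (SE; limma adjusted p = 0.000124). Another Scd1 probe set had 212.0, 456.9 and 398.2 against 182.9, 112.1 and 110.2, without overlap and with a difference of -1.12 that did not pass. Scd2, its relative on chromosome 19 with only Scd4 between them among protein-coding genes, had 64633, 44630.1 and 52523 in mesenchyme and 85582, 64609 and 57207 in epithelium. That is a difference of 0.35 (-0.26 to 0.96), with overlap. The log2 difference of Scd1 minus that of Scd2 was -4.84 (exact two-sided permutation p = 0.100, again the smallest possible, and 0.120 adjusted). Paralogs can share hybridisation, so the Scd1 and Scd2 signals may not be wholly separate. The probe sets used for 6 genes of the list (Fdft1, Hsd17b7, Acly, Elovl1, Elovl5 and Elovl7) end in x_at. Affymetrix gives this suffix to probe sets able to bind other transcripts too. Those used for Mvd and Lss end in s_at and are outside this count.

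Fads1 and Fads2 encode the desaturases that act in turn on polyunsaturated fatty acids. Fads1 had 16981, 18981 and 14756 in mesenchyme and 6786, 2832 and 4505.5 in epithelium, means of 16906 ± 2114 (SD, n = 3) and 4708 ± 1985 (SD, n = 3). Fads2 had 5186, 3965 and 3573 in mesenchyme and 936.7, 1011 and 1633 in epithelium, means of 4241 ± 841 (SD, n = 3) and 1193 ± 382 (SD, n = 3). Neither gene overlapped between compartments, and the log2 differences were -1.91 ± 0.33 (SE; limma adjusted p = 0.00213) and -1.82 ± 0.32 (SE; limma adjusted p = 0.00260). The differences of the pair lay 0.10 apart (exact two-sided permutation p = 0.800). Another Fads1 probe set differed by -0.03 (-0.98 to 0.92), and 2 of 3 Fads2 probe sets passed towards mesenchyme. Fads1, Fads2 and Fads3 follow each other on chromosome 19 with no protein-coding gene between them in RefSeq's GRCm38.p6 annotation. Fads3, of the same family, had 1593, 2027 and 2002.5 in mesenchyme and 93.0, 102.0 and 21.1 in epithelium, a log2 difference of -4.11 ± 0.44 (SE; limma adjusted p = 9.32e-05). Its epithelium signals were below the median signal of their arrays, and the difference was -3.04 with 179 added in place of 45 and -2.73 with its probe sets averaged. The calls of Scd1, Fads1 and Fads2 held under all 18 alternatives, with log2 differences of -4.97 to -2.80, -2.29 to -0.97 and -2.06 to -1.52. For Scd1 and Fads1 the end nearest 0 came from averaging the gene's probe sets. The summed signals of the mesenchymal, smooth muscle, endothelial and macrophage markers given above were also higher in mesenchyme. The part of these cell types in the differences was not tested.

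**Figure D4:**
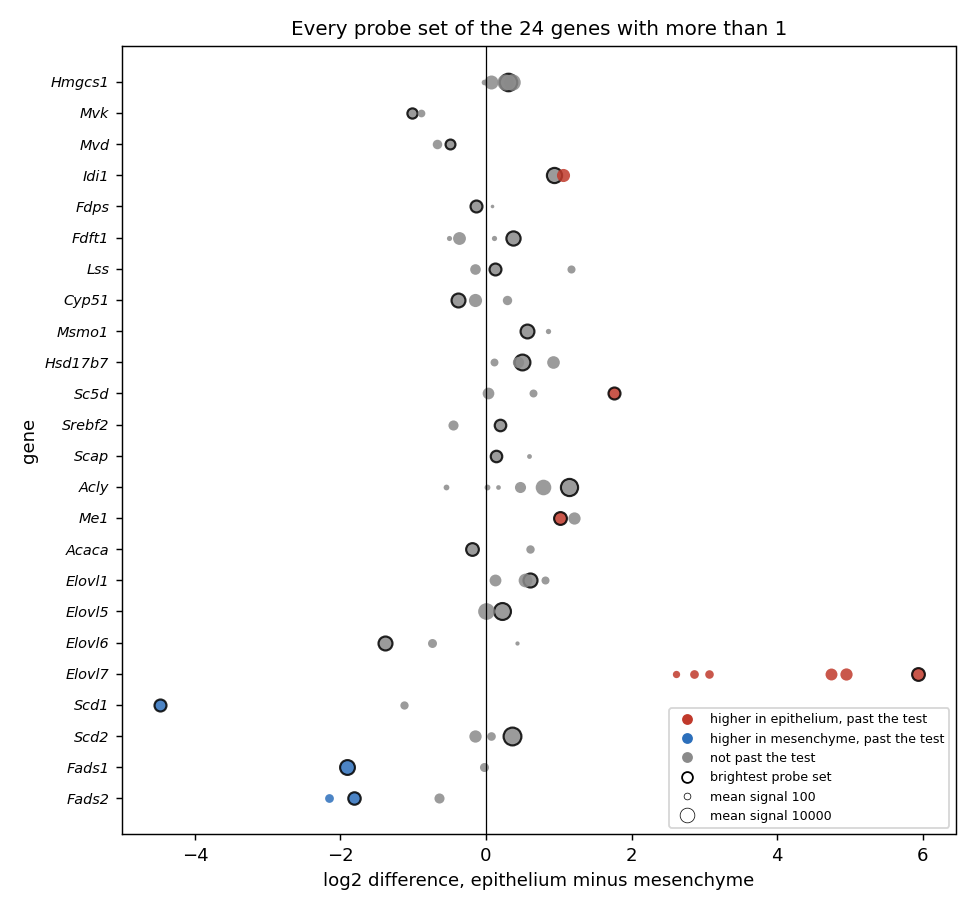
Log2 difference of every probe set of the 24 genes with more than 1, epithelium minus mesenchyme; point size grows with mean signal, a black outline marks the brightest probe set, and colour marks adjusted p under 0.05 over all named probe sets. All 6 probe sets of Elovl7 lie to the right, those of Sc5d spread from 0.02 to 1.76, and no gene has probe sets past the test in both directions.

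Related genes outside the list were counted in the same fit. Of 13 measured genes of further sterol and isoprenoid steps, 0 passed towards epithelium and 1 towards mesenchyme (median log2 difference -0.12); at an unadjusted p under 0.05 the counts were also 0 and 1. The share past the limma test was 7.69%, against 14.7% of all genes. The gene was Cyp46a1, a cholesterol hydroxylase, with 147.0, 141.3 and 113.4 in mesenchyme and 18.5, 40.9 and 35.7 in epithelium, all below 45. Its log2 difference of -1.23 therefore depends on the value added, being -2.11 with 1 added, where it did not pass. Nor did it pass when any one array except mesenchyme 1 was left out. Of 19 measured genes of sterol sensing, uptake, transport and esterification, 0 passed towards epithelium and 3 towards mesenchyme (median -0.02), a share of 15.8% that is close to the 14.7% of all genes. At an unadjusted p under 0.05 the limma counts were 0 and 4 here, and 1790 and 2782 over all genes. The 3 genes past the test were Apoe, the lipid carrier that macrophages also make, at -4.34 ± 0.89 (SE), Abcg1, a sterol exporter, at -1.79 ± 0.39, and Npc1, which moves cholesterol out of lysosomes, at -1.62 ± 0.39. Apoe had 446.5, 6934 and 3699.7 in mesenchyme, lowest on mesenchyme 1, and 18.1, 43.5 and 232.5 in epithelium. Its difference was -5.47 without mesenchyme 1, -3.55 without mesenchyme 2 and -4.97 without epithelium 8, past the test each time. Npc1 did not pass when mesenchyme 2, mesenchyme 4, epithelium 5 or epithelium 7 was omitted, nor Abcg1 when mesenchyme 4 was or when its probe sets were averaged (-1.15).

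Of 32 further genes of fatty acid, NADPH and glycerolipid synthesis, 4 passed towards epithelium and 3 towards mesenchyme (median -0.10), a share of 21.9% against 14.7% of all genes. At an unadjusted p under 0.05 the counts were 7 and 4. Towards epithelium were Acsl5 and Acsl3, which activate fatty acids to acyl-CoA, at 1.86 ± 0.24 (SE) and 1.34 ± 0.29, and Dgat2, which forms triglyceride, at 1.45 ± 0.32. The fourth, named after its value was seen, was Hacd2, a dehydratase of the elongation cycle, at 0.88 ± 0.24. Acsl5 had 6585, 6895 and 6131 in mesenchyme against 20145, 26358 and 25409.5 in epithelium, without overlap. Towards mesenchyme, beside Fads3, were Elovl4, an elongase of very long chains, at -2.50 ± 0.62, and Hacd1, a relative of Hacd2, at -1.37 ± 0.30. Elovl4 did not pass without mesenchyme 1 (-1.93), epithelium 7 (-2.33) or epithelium 8 (-2.13), Hacd1 without mesenchyme 4 (-1.23), or Dgat2 without epithelium 7 (1.30). Hacd2 did not pass when mesenchyme 2 (0.79), mesenchyme 4 (0.87), epithelium 7 (0.82) or epithelium 8 (0.88) was left out.

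**Figure D5:**
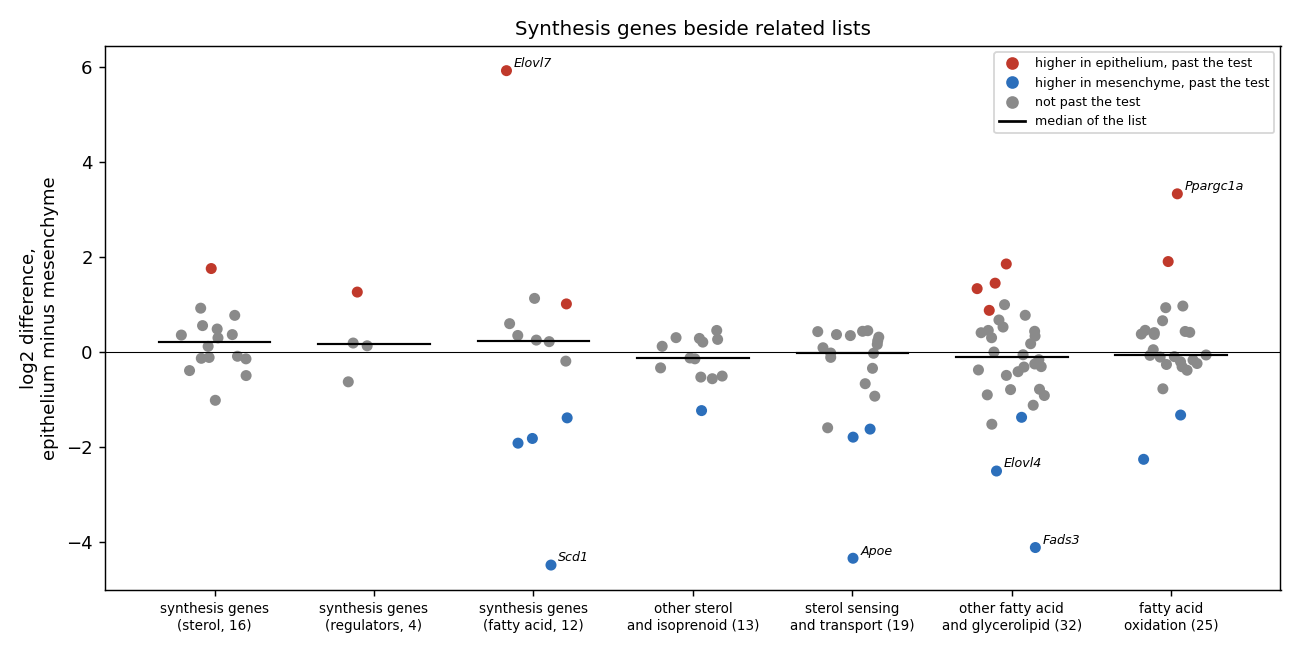
Log2 differences, epithelium minus mesenchyme, of the 16 sterol enzymes, 4 regulators and 12 fatty acid genes beside 4 related lists; points are genes, lines are medians, and the farthest genes are named. The medians of all groups lie between -0.12 and 0.24, with Elovl7 at the top and Scd1, Apoe and Fads3 at the bottom.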

How the data were processed

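Bladder mesenchyme and epithelium were measured on 3 Affymetrix arrays each. The deposited values are intensity on a linear scale, and the submitters' processing notes name GCOS, with its algorithm "not given in the sources used here". Every array had a 2% trimmed mean of 1500 and was not scaled again; a difference between compartments in RNA per cell would be hidden by such scaling. The number of arrays limits the precision. Of 45101 probe sets, 34945 had a single symbol, and each of 18193 genes was read from its probe set with the highest mean signal. The transform log2(signal + 45) was fitted with limma 3.58.1 in R 4.3.3 (lmFit, eBayes with an intensity trend) on all 6 arrays, with Benjamini-Hochberg adjustment over all genes. Intervals of 95% use the moderated standard error, and SDs are of signals. All measured genes of the list were described, and of each related list up to 3 genes with the largest difference past the test in each direction were named. Gene pairs were compared by exact permutation over arrays. The genes and lists were chosen with earlier results of these data known. Alternatives changed the pseudocount, normalization, filter, trend, array weights and probe set rule, or left arrays out.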

Additional observations from a re-analysis of the deposited data

How the results depend on the processing

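Each gene of the list was recomputed under 18 alternatives, and no difference past the test changed direction. Elovl7, Scd1, Fads1 and Fads2 passed in all of them, and Sc5d in all except the mean of its probe sets. The number higher in epithelium was 2 without the intensity trend and 11 with array weights, and 2 to 4 when single arrays were left out; the number higher in mesenchyme was then 3 to 4. Over all genes, the counts higher in epithelium and mesenchyme were 2074 and 3033 with array weights. They were 652 to 1061 and 1150 to 1703 when single arrays were left out (652 without epithelium 7). The mesenchyme count was 991 among genes above the median signal, but that filter kept only 9096 of the 18193 genes. It therefore cannot be set beside the other counts as a loss of calls. The causes of the other shifts were not tested. Centring arrays on their medians moved the median difference of all genes from -0.11 to 0.08, which bears on the sign of differences near 0. Ranking probe sets by mean log2 signal was added after seeing the data. No paired analysis was possible because no replicate number occurs in both compartments. Signals near background compress differences, so the low signals of Elovl7 in mesenchyme and of Scd1, Fads3, Apoe and Cyp46a1 in epithelium limit how precisely their folds are known.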

Other observations

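Fatty acid oxidation, the breakdown of the chains that the genes above build, had 25 measured genes. Of these, 2 passed towards epithelium and 2 towards mesenchyme, a share of 16% that is close to the 14.7% of all genes, with a median log2 difference of -0.06 against -0.11 for all genes. Ppargc1a, a coactivator of mitochondrial genes, had 210.4, 530.0 and 595.5 in mesenchyme and 5209.8, 5074 and 3562 in epithelium, a log2 difference of 3.34 ± 0.40 (SE; limma adjusted p = 0.000214), or 2.30 with its probe sets averaged. Acadl, a mitochondrial acyl-CoA dehydrogenase, had 6133.5, 6644 and 6718 against 25728.5, 23277 and 24649, a difference of 1.91 ± 0.23, but 0.73 in the mean of its probe sets, where the call was lost (limma adjusted p = 0.172). Towards mesenchyme, Cpt1c, a relative of the carnitine palmitoyltransferases, differed by -2.26 ± 0.38 (SE) and Echs1, an enoyl-CoA hydratase, by -1.32 ± 0.25. The compartments did not overlap for any of these 4 genes.

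A list of adipocyte markers, kept as a check on other cell types, split as well, and its genes are named here after their values were seen. Pparg, a nuclear receptor that drives lipid storage in fat cells, had 364.9, 240.5 and 175.8 in mesenchyme and 4550.1, 13139.6 and 12146 in epithelium, a log2 difference of 4.93 ± 0.44 (SE; limma adjusted p = 3.08e-05). Cebpa, a transcription factor of fat cells and several other tissues, was also higher in epithelium (2.32 ± 0.43). Fabp4, a fatty acid carrier, was higher in mesenchyme, with 729.0, 523.2 and 1108 against 21.2, 100.2 and 55.2 (-3.01 ± 0.47). The other 3 measured markers, Adipoq, Cidec and Lipe, did not pass. Their mean signals were 69.2, 22.5 and 161.7 in mesenchyme and 61.3, 45.6 and 138.4 in epithelium.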
